A study of Danio rerio with 24 samples.

Results

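The change of the whole-larva transcriptome between 5 and 3 days post-fertilization (dpf) was measured in larvae that make an active form of the Fyn kinase in their neurons. The data are 8 of the 24 RNA-Seq libraries of the series, 4 at 5 dpf and 4 at 3 dpf, chosen by the genotype and age that the labels give. Each library was made from a separate pool of whole zebrafish larvae. The larvae carry the neuronal driver, labelled huc:gal4:gcry:RFP, and the transgene labelled UAS:fynY531F:gcry:GFP, and are called fynY531F larvae here. The driver makes Gal4 under the pan-neuronal *elavl3* (HuC) promoter. Gal4 then switches on a copy of the zebrafish *fyna* reading frame in which the inhibitory tyrosine near the end of the kinase is replaced, so every neuron is a possible site of expression and other tissues have no driver of their own. Both transgenes also carry a lens crystallin promoter with a fluorescent protein, by which carriers are picked. *elavl3:Gal4* larvae (huC:gal4:gcry:RFP, driver alone) and wild-type (WT) larvae were sequenced at the same 2 ages, with 4 libraries per group, and serve only as comparison. By the study's text some larvae with this transgene have a curved trunk, and whether such larvae were among those pooled is not stated in the sources used here.

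A zebrafish embryo hatches at around 3 dpf with its organs laid out but with yolk as its food. Over the next days the liver, exocrine pancreas and gut mature, the swim bladder fills, bone begins to mineralize, and the larva starts to hunt by sight. Primitive red cells made in the embryo are replaced, hatching gland cells are lost, and neurons pass from birth and axon growth to synapses. The notochord is a rod of large vacuolated cells within a sheath of collagen. Fyn is a Src family kinase of neurons and immune cells that works downstream of adhesion and neurotransmitter receptors. In libraries from whole animals, fewer cells of a type and less RNA per cell cannot be told apart.

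Of 25585 genes listed for these 8 libraries, 19691 had enough counts to be tested with edgeR's quasi-likelihood test, in which a gene was called at a Benjamini-Hochberg adjusted p under 0.05. A gene was called with age in 10302 cases, 52.3% of those tested. Of these, 5316 were higher at 5 dpf (27.0% of the genes tested) and 4986 were lower (25.3%). The median log2 fold change, 5 over 3 dpf, was 0.00 over all genes, 0.78 over those called higher and -0.55 over those called lower. A log2 fold change over 1 (more than 2-fold) was called for 1946 genes that were higher (9.88%) and 730 that were lower (3.71%), one over 3 (8-fold) for 238 and 29, and one over 6 (64-fold) for 47 and 0. For 9413 genes (47.8%) no library of one age overlapped with the other age in CPM, a gene's counts scaled to a common library size. With scaling by library totals alone, 4294 genes were higher and 6148 lower, and the median of all genes moved to -0.10, so that changes of this size depend on the scaling. Total counts ran between 11890763 and 18752812 at 5 dpf and between 12270667 and 18349756 at 3 dpf, which is about the same depth at both ages. The libraries were less alike at 5 dpf, with a biological coefficient of variation of 0.162, than at 3 dpf, with 0.100. Marker genes of gut, liver, muscle, skin, pigment cells, blood vessels, immune cells, neurons, glia and retina had counts at both ages. The fast muscle light chain gene *mylpfa* had 1 count in all at 5 dpf and 28 at 3 dpf, and the adult globin gene *hbaa1* had 5 and 14, so these 2 genes could not serve as markers.

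Tissues were followed with 75 lists of genes, of which 74 had a tested member. In 17 lists more than 50% of the tested members were higher at 5 dpf, and in 11 more than 50% were lower. Those higher were exocrine pancreas, enterocyte, goblet and enteroendocrine cell, liver metabolism, bone, epidermis, ionocyte, skin mucous cell, lymphocyte and thymus, swim bladder and hindgut mesothelium, inner ear and lateral line, synaptic vesicle, myelin, immediate early, ribosomal protein, collagen and glucocorticoid response. Those lower were hatching gland, slow muscle, xanthophore and iridophore, embryonic globin, erythroid, mitosis, proteasome, mitochondrial ribosome, spliceosome, heat shock and *hox* genes. The median log2 fold change of a list ran between 6.72 (exocrine pancreas) and -1.99 (embryonic globins). Counts of list members given below stand beside 27.0% of all genes tested called higher and 25.3% called lower.

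**Figure D1:**
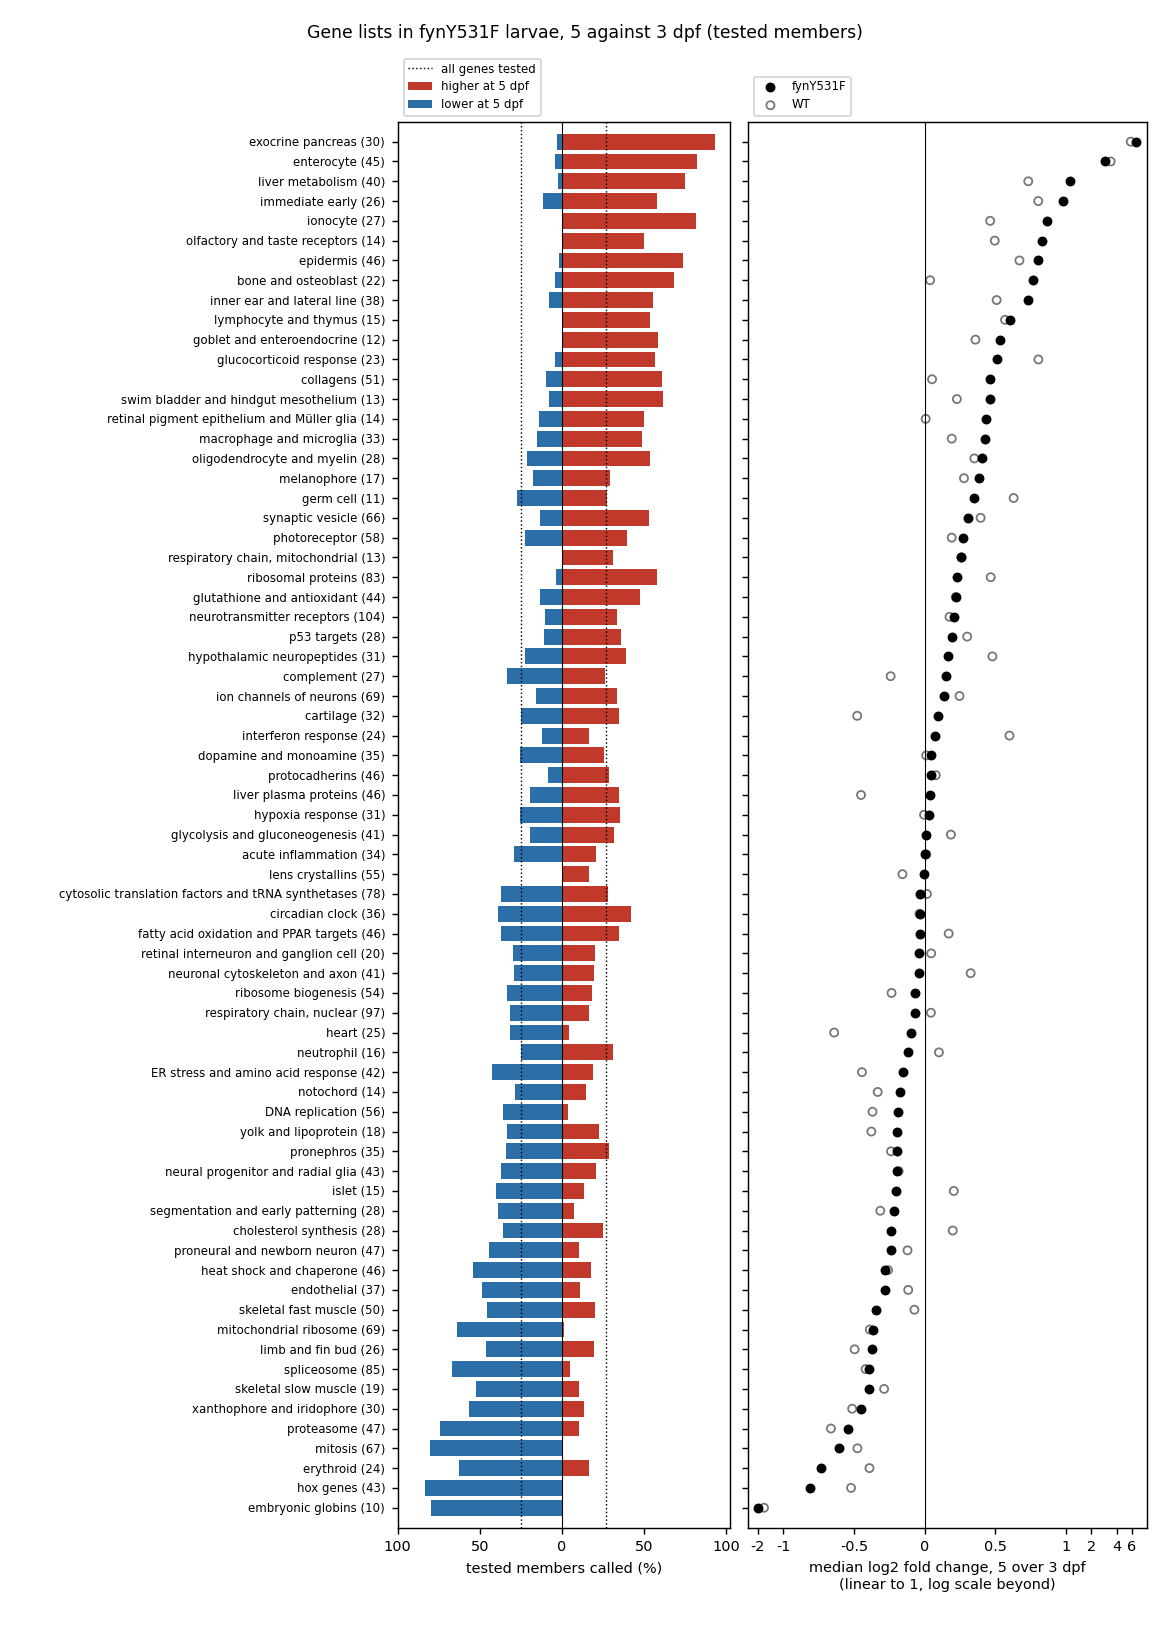
Left, percent of the tested members of each gene list called higher (red, to the right) or lower (blue, to the left) at 5 dpf than at 3 dpf in fynY531F larvae, with dotted lines at the 27.0% and 25.3% of all genes tested; right, the median log2 fold change, 5 over 3 dpf, of the list in fynY531F larvae (filled) and in WT larvae (open), on an axis that is linear up to 1 and logarithmic beyond. The number of tested members stands in brackets, lists with under 10 are left out, and digestive lists stand at the top while embryonic globins, *hox* genes and erythroid genes stand at the bottom.

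Counts of *fyna*, which can include those from the transgene since it has the same reading frame, were lower at 5 dpf. *fyna* (chromosome 17, 15502964 to 15528597, GRCz11) had 194, 142, 225 and 269.7 CPM at 5 dpf, against 841, 826, 959 and 977 CPM at 3 dpf. All 4 libraries at 5 dpf lay below all 4 at 3 dpf, by a log2 fold change of -2.11 ± 0.17 (SE), edgeR adjusted p = 6.07e-06. The driver's own gene *elavl3*, an RNA-binding protein of all young neurons, had 395, 418, 489.9 and 536 CPM at 5 dpf, against 482, 454, 486 and 529 CPM at 3 dpf, and the ages overlapped (-0.08 ± 0.10, edgeR adjusted p = 0.543). *fynb*, the second zebrafish *fyn* gene, was lower at 5 dpf (-0.49 ± 0.09 on the log2 scale, edgeR adjusted p = 0.00128), a call lost when all 6 groups were fitted together. In WT larvae *fyna* moved by -0.02 and in *elavl3:Gal4* larvae by 0.27 with age. The age change of *fyna* in fynY531F larvae differed from that in WT by -2.10 ± 0.19 (edgeR adjusted p = 3.46e-06) and from that in *elavl3:Gal4* by -2.38 ± 0.21 (edgeR adjusted p = 7.07e-05). Age and transgene level cannot be told apart among these 8 libraries.

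The digestive organs gave the strongest rise. Of 30 tested exocrine pancreas genes, the zymogens and enzymes that acinar cells secrete, 28 were higher at 5 dpf and 1 was lower, with a median log2 fold change of 6.72. Together the list took 0.557 ± 0.236% of all counts at 5 dpf and 0.00631 ± 0.0015% at 3 dpf (SD, n = 4 each). *prss59.2*, a trypsin, had 1368, 1007, 733 and 719 CPM at 5 dpf, against 9.15, 7.14, 3.02 and 4.198 CPM at 3 dpf. *ela3l*, an elastase, had 692, 289, 301 and 261 CPM at 5 dpf, against 0.756, 0.784, 0.410 and 0.206 CPM at 3 dpf. The starch-splitting amylase gene *amy2a* had 163, 63.2, 70.0 and 71.9 CPM at 5 dpf, against 0.454, 0.549, 0.359 and 0.688 CPM at 3 dpf. In each of these the lowest library at 5 dpf was many times the highest at 3 dpf, and replicate 1 stood above the other 5 dpf libraries. The log2 fold changes were 7.39 ± 0.37 for *prss59.2*, 9.53 ± 0.49 for *ela3l* and 7.51 ± 0.45 for *amy2a* (SE, largest edgeR adjusted p of the 3 = 1.13e-06). *ctrl* (a chymotrypsin-like protease), *ela2* (an elastase) and *sycn.2* (syncollin, a zymogen granule protein) were higher by 8.03, 8.03 and 9.06 on the log2 scale. For 28 genes of the genome the 4 libraries at 3 dpf held 3 counts or fewer in all while each 5 dpf library held at least 10, and 7 of these encode a trypsin domain and 3 an astacin protease domain.

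Enterocyte genes, which absorb and process food in the gut lining, were higher in 37 of 45 tested members and lower in 2, with a median of 2.94. *chia.2*, a chitinase of the digestive tract, had 393, 227, 349 and 260.1 CPM at 5 dpf, against 1.66, 3.06, 1.43 and 1.38 CPM at 3 dpf (7.39 ± 0.27 (SE), edgeR adjusted p = 1.61e-07). *slc10a2*, the ileal bile acid transporter, had 15.4, 5.09, 6.41 and 5.35 CPM at 5 dpf, against 0.302, 0.392, 0.256 and 0.206 CPM at 3 dpf (4.78 ± 0.49 (SE), edgeR adjusted p = 2.72e-05). Neither gene overlapped between the ages. *apoa1a*, an apolipoprotein that yolk and gut cells both make, had 1055, 1095, 679.5 and 933 CPM at 5 dpf, against 1006, 1556, 1154 and 956 CPM at 3 dpf, with no change called (edgeR adjusted p = 0.173). In the smaller list of goblet and enteroendocrine cells, 7 of 12 were higher, among them the mucin gene *muc5.1* (1.33) and *vipb*, a neuropeptide (0.91). Both genes are in 2 lists, *muc5.1* also in that of skin mucous cells, so they are not particular to the gut. The list of smooth muscle and mesothelium that wraps hindgut and swim bladder was higher in 8 of 13 and lower in 1. Its actin gene *acta2* had 130.1, 133, 147 and 119.5 CPM at 5 dpf, against 45.5, 45.1, 36.2 and 40.8 CPM at 3 dpf (1.67 ± 0.09 (SE), edgeR adjusted p = 7.13e-07), and *tagln*, an actin-binding protein of smooth muscle, was higher by 1.49 ± 0.15.

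Genes listed for liver metabolism were mostly higher, while fewer than 50% of those listed for plasma proteins were. *apobb.1*, the most abundant of the latter, is also listed with the yolk. Of 40 tested genes of liver metabolism 30 were higher and 1 lower (median 1.14). *cyp3a65*, a cytochrome P450 of liver and gut, had 252, 172, 226 and 147 CPM at 5 dpf, against 3.48, 3.06, 1.59 and 2.55 CPM at 3 dpf (6.27 ± 0.25 (SE), edgeR adjusted p = 1.61e-07). *tat*, the tyrosine aminotransferase, was higher by 3.75 ± 0.31 and *fabp10a*, the liver fatty acid-binding protein, by 4.21 ± 0.30. *fabp10a* lay between 90.4 and 199 CPM at 5 dpf, against 4.95 to 11.4 CPM at 3 dpf. Of 46 genes for plasma proteins and apolipoproteins, only 16 were higher and 9 lower, with a median of 0.04, a value whose sign turned with scaling by library totals. Among these, *ahsg2*, a fetuin, was higher (4.38 ± 0.54), while *apobb.1*, the apolipoprotein B that carries yolk lipid, had 4848, 4252, 3504 and 4082 CPM at 5 dpf, against 7023, 10228, 7648 and 6389 CPM at 3 dpf and was lower (-0.90 ± 0.15 (SE), edgeR adjusted p = 6.24e-04). Of the 15 tested islet genes 2 were higher and 6 lower. *slc30a8*, the zinc transporter of insulin granules, was lower with a log2 fold change of -1.11 ± 0.17 (edgeR adjusted p = 3.15e-04).

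**Figure D2:**
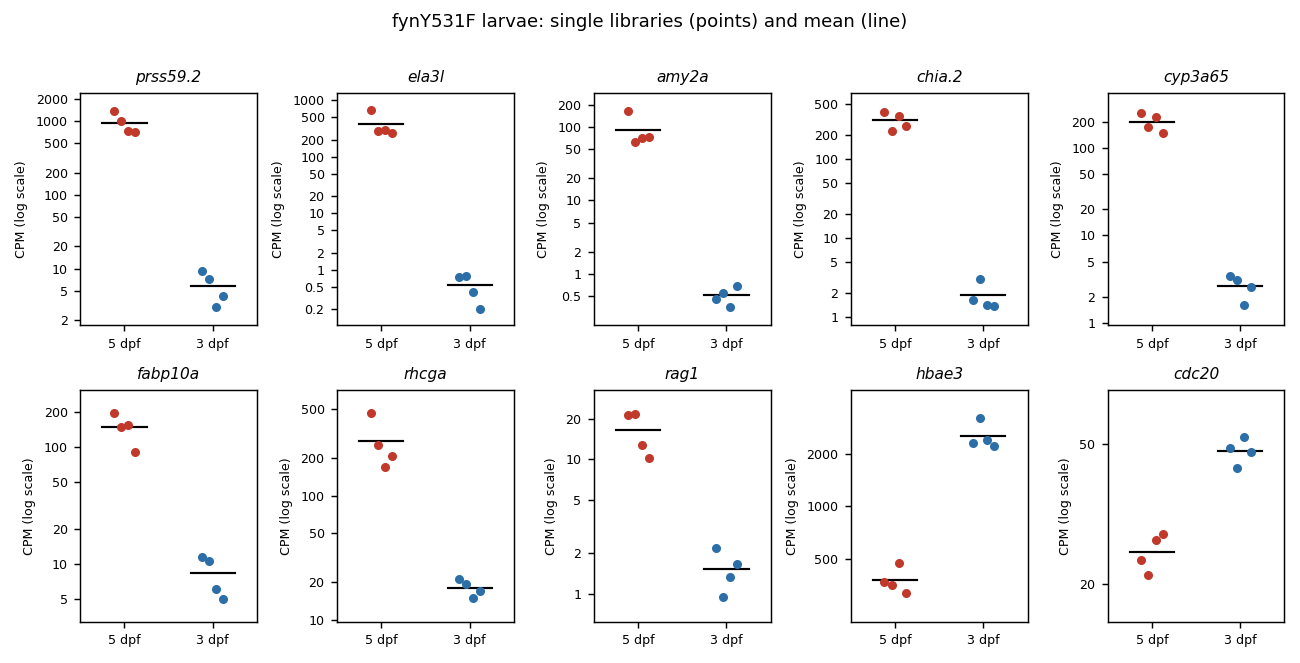
CPM (log scale, each panel with its own range) of 10 genes in the single fynY531F libraries, 4 at 5 dpf (red, left) and 4 at 3 dpf (blue, right), with the mean of each age as a line. In all 10 panels the ages do not overlap, with *prss59.2*, *ela3l*, *amy2a*, *chia.2*, *cyp3a65*, *fabp10a*, *rhcga* and *rag1* higher and *hbae3* and *cdc20* lower at 5 dpf.

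Genes of embryonic red cells and the hatching gland were mostly lower. Of 10 embryonic globin genes 8 were lower and 0 higher, with a median of -1.99, and their share of counts was 0.0893 ± 0.0141% at 5 dpf and 0.466 ± 0.053% at 3 dpf (SD, n = 4 each). *hbae3*, an alpha-type embryonic globin, had 364, 353, 470.3 and 315 CPM at 5 dpf, against 2311, 3223, 2406 and 2222 CPM at 3 dpf (-2.75 ± 0.16 (SE), edgeR adjusted p = 7.98e-07). The beta-type gene *hbbe3*, chosen after its values were seen, held 3 counts at 5 dpf and 83 at 3 dpf in the sum of each age. None of 5 larval and adult globin genes reached the number of counts needed for a test. Reads from near-identical globin copies could have been split or dropped in counting. Other erythroid genes were lower in 15 of 24 and higher in 4, with *nt5c2l1*, a nucleotidase, at -1.69 ± 0.17. *rhag*, a Rhesus-associated membrane protein of red cells, was among the 4 that were higher (0.28 ± 0.10, edgeR adjusted p = 0.0323), a call lost with library totals and in 5 of 8 fits that left out a library. Of 7 hatching gland genes 5 were lower. *he1.1*, a hatching enzyme that digests the egg envelope (chosen after its values were seen), had 33.6, 20.9, 61.6 and 9.32 CPM at 5 dpf, against 82.6, 82.6, 101 and 70.19 CPM at 3 dpf (-1.42 ± 0.41 (SE), edgeR adjusted p = 0.0145), a call lost when all 6 groups were fitted together (edgeR adjusted p = 0.0739). Replicate 3 at 5 dpf kept the highest and replicate 4 the lowest level, and the list's median of -0.94 became -0.60 without replicate 4 and -1.45 without replicate 1.

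Genes of the body surface were mostly higher. Of 46 epidermis genes 34 were higher and 1 lower (median 0.81). *krt5*, a keratin, had 3.12, 15.05, 9.09 and 4.24 CPM at 5 dpf, against 1.21, 0.941, 1.13 and 1.51 CPM at 3 dpf (2.73 ± 0.48 (SE), edgeR adjusted p = 7.96e-04). *krt4*, the keratin of the outer layer, had 5385, 21160.2, 13201 and 12976 CPM at 5 dpf, against 7409, 9899.9, 8119 and 8264 CPM at 3 dpf, so the 5 dpf libraries lay on both sides of those at 3 dpf and no change was called (edgeR adjusted p = 0.0972). Of 27 genes of ionocytes, the skin cells that take up salts and excrete acid and ammonia, 22 were higher and 0 lower (median 0.87). The ammonia transporter gene *rhcga* had 462, 256, 172 and 210.0 CPM at 5 dpf, against 21.4, 19.4, 14.8 and 16.9 CPM at 3 dpf (3.94 ± 0.30 (SE), edgeR adjusted p = 4.29e-06), with replicate 1 the highest. The sodium pump subunit *atp1a1a.1* changed far less, by 0.29 ± 0.06, but without overlap between the ages, a call lost when all 6 groups were fitted together (edgeR adjusted p = 0.0870). *slc34a2a*, a phosphate transporter listed with the pronephros, was higher by 5.51 ± 0.36. The whole pronephros list had 10 of 35 higher and 12 lower (28.6% and 34.3%, beside 27.0% and 25.3% of all genes tested).

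Bone and collagen genes rose while cartilage genes went both ways. Of 22 bone genes 15 were higher and 1 lower (median 0.77). *col1a1b*, a chain of type I collagen, had 2713, 4847, 3275 and 3178 CPM at 5 dpf, against 1429, 1474, 1272 and 1232 CPM at 3 dpf (1.38 ± 0.16 (SE), edgeR adjusted p = 5.24e-05). *scpp1*, a secreted phosphoprotein of mineralizing tissue, was higher by 2.64 ± 0.21. Of 51 collagen genes 31 were higher and 5 lower (median 0.47), and the list took 2.09 ± 0.282% of counts at 5 dpf and 1.28 ± 0.0554% at 3 dpf (SD, n = 4 each). *col14a1b*, a fibril-associated collagen, had 165, 279, 164 and 172 CPM at 5 dpf, against 34.9, 29.6, 28.8 and 26.01 CPM at 3 dpf (2.72 ± 0.18 (SE), edgeR adjusted p = 1.65e-06), with replicate 2 above the other 5 dpf libraries. Cartilage genes were higher in 11 of 32 and lower in 8 (34.4% and 25%, beside 27.0% and 25.3% of all genes tested). *col2a1a*, the type II collagen of cartilage and notochord sheath, was higher by 0.47 ± 0.11. Of 38 inner ear and lateral line genes 21 were higher and 3 lower, led by *pvalb8*, a calcium-binding protein of hair cells (2.81 ± 0.22).

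A group of notochord genes fell steeply. Among the 10 largest falls that the naming rule allowed were *ngs* (notochord granular surface), the vimentin-related genes *vimr1* and *vimr2*, the T-box factor gene *tbxta*, which specifies the notochord, and *emilin3a* and *matn3a*, which encode matrix proteins. *ngs* (chromosome 4, 5776347 to 5784895) had 8.098, 11.9, 13.2 and 2.92 CPM at 5 dpf, against 185, 224, 236 and 224 CPM at 3 dpf. *vimr1* had 5.23, 4.81, 7.51 and 1.04 CPM at 5 dpf, against 95.4, 119, 124 and 124 CPM at 3 dpf. *tbxta* had 1.097, 0.801, 0.689 and 0.209 CPM at 5 dpf, against 11.8, 11.9, 13.2 and 13.4 CPM at 3 dpf. In each of these 3 genes every 5 dpf library lay more than 10-fold below the lowest 3 dpf library, and replicate 4 was the lowest. The log2 fold changes were -4.57 ± 0.32, -4.63 ± 0.33 and -4.17 ± 0.26 (SE, largest edgeR adjusted p of the 3 = 2.81e-06). *vimr2* fell by 3.74, *matn3a* by 4.01 and *emilin3a* by 3.65 on the log2 scale. *cmn* (calymmin, a sheath protein) and *ihhb* (a hedgehog signal), chosen after their values were seen, fell by 3.34 and 3.16. The notochord list had 2 of 14 higher and 4 lower (median -0.17). It does not hold *ngs* or *vimr1*, its lowest member being at -4.17, so its counts leave out these steep falls. Its sheath collagen gene *col9a2* had 502, 635, 656 and 618 CPM at 5 dpf, against 558, 502, 567 and 547 CPM at 3 dpf with no change called.

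In WT larvae *ngs*, *vimr1*, *vimr2* and *tbxta* moved less with age. In WT *ngs* ranged between 83.0 and 159.8 CPM at 5 dpf and between 175 and 199.9 CPM at 3 dpf, and in *elavl3:Gal4* between 14.2 and 70.0 CPM at 5 dpf and between 227 and 258 CPM at 3 dpf. Its age change in fynY531F larvae differed from that in WT by -3.95 ± 0.37 (edgeR adjusted p = 5.25e-06). For *vimr1*, *vimr2* and *tbxta* the difference from WT was -3.96, -3.28 and -3.21 (largest edgeR adjusted p of the 3 = 2.87e-05). Against *elavl3:Gal4* no difference was called for these 4 genes (-1.91 for *ngs*, edgeR adjusted p = 0.0811). A library of that group stands apart from its others, and without it (5 dpf, replicate 3) the difference was -1.38 for *ngs* (edgeR adjusted p = 0.0321), -1.40 for *vimr1* (edgeR adjusted p = 0.0458), -0.89 for *vimr2* (edgeR adjusted p = 0.0420) and -0.55 for *tbxta* (edgeR adjusted p = 0.448). On its own, *ngs* fell by 3.18 on the log2 scale in *elavl3:Gal4* larvae without that library and by 0.63 in WT. *emilin3a* went the other way, with a fall in fynY531F larvae that was smaller than in *elavl3:Gal4* (difference 1.82 ± 0.40, edgeR adjusted p = 0.0180). Its difference from WT of 1.31 was not called (edgeR adjusted p = 0.0802). For *matn3a*, *cmn* and *ihhb* the difference from WT was -2.19, -1.81 and -2.31 (edgeR adjusted p = 0.00284, 0.00329 and 0.00531). From *elavl3:Gal4* these 3 genes differed by -0.41, 0.19 and -0.33, with none called. Without its replicate 3 at 5 dpf the values were -0.08, 0.12 and -0.42, again with none called.

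**Figure D3:**
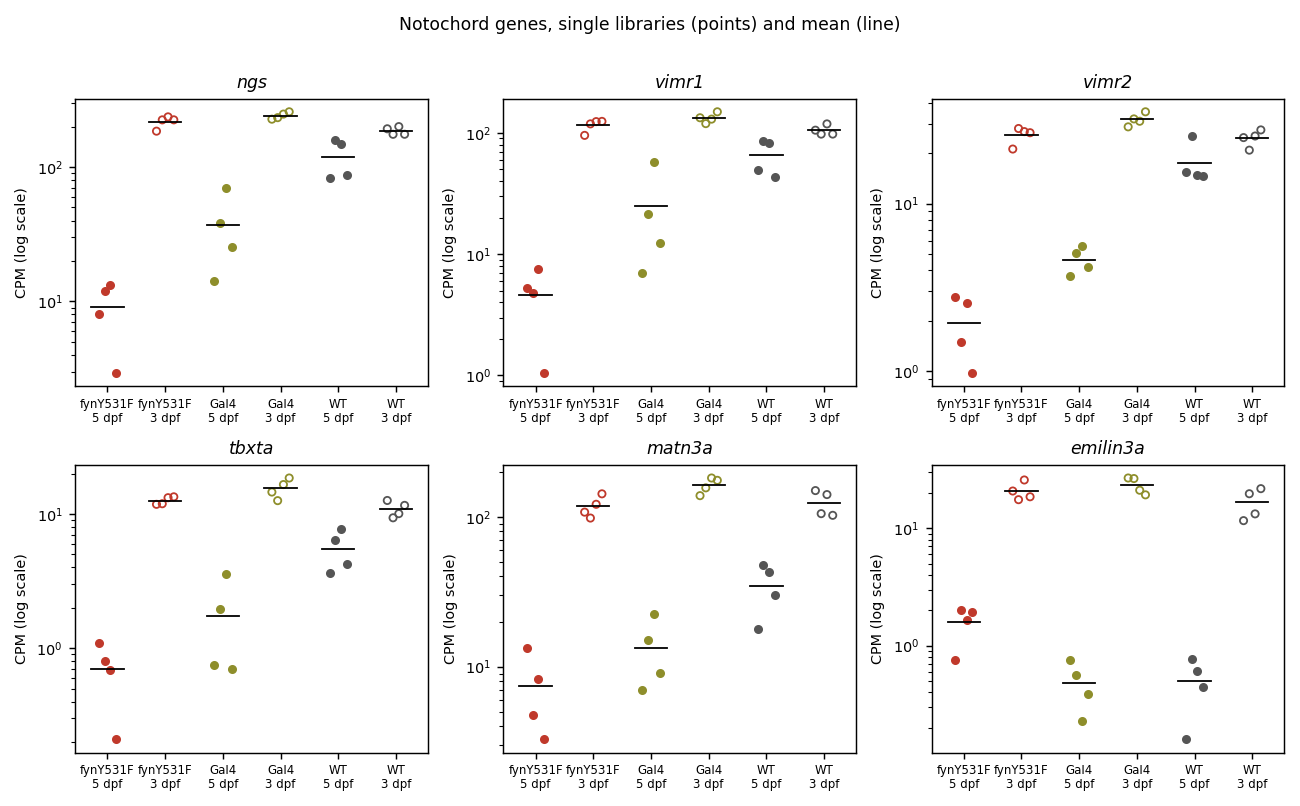
CPM (log scale, each panel with its own range) of 6 genes of notochord and matrix in single libraries of fynY531F, *elavl3:Gal4* (Gal4) and WT larvae, filled at 5 dpf and open at 3 dpf, with the mean of each group as a line. *ngs*, *vimr1*, *vimr2*, *tbxta* and *matn3a* have their lowest mean in fynY531F larvae at 5 dpf and *emilin3a* has its lowest in the *elavl3:Gal4* and WT larvae of that age.

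Muscle and vessel genes were more often lower. Of 50 fast muscle genes 10 were higher and 23 lower (median -0.34), and of 19 slow muscle genes 2 were higher and 10 lower (-0.40). *pvalb1*, the calcium buffer of fast muscle, had 7296, 6368, 6209 and 4862 CPM at 5 dpf, against 5253, 6102, 4501 and 5699 CPM at 3 dpf, which overlap. *mybpc2a*, a fast myosin-binding protein, rose by 2.89 ± 0.23, and *mb*, the oxygen store myoglobin, by 1.06 ± 0.12. In the heart list 1 of 25 was higher and 8 lower, with *nppb*, a natriuretic peptide, at -1.81 ± 0.27. *actc1b*, an actin gene of striated muscle, had 8056, 7460.0, 8149 and 4757 CPM at 5 dpf, against 7475, 8513, 6983 and 7636 CPM at 3 dpf, and its value of -0.10 turned to 0.06 without replicate 4 at 5 dpf. Of 37 endothelial genes 4 were higher and 18 lower, among them *stab2*, a scavenger receptor of veins, which had 4.39, 5.38, 5.85 and 5.08 CPM at 5 dpf, against 13.3, 16.5, 14.0 and 16.3 CPM at 3 dpf (-1.52 ± 0.12 (SE), edgeR adjusted p = 7.06e-06). Among pigment cells, 17 of 30 genes of xanthophores and iridophores were lower and 4 higher (median -0.45). *slc2a15a*, a transporter gene needed for xanthophores, was lower with a log2 fold change of -1.28 ± 0.15 and *paics*, of purine synthesis, with one of -0.58 ± 0.11. Melanophore genes were higher in 5 of 17 and lower in 3, with the melanosome gene *pmelb* at -1.18 ± 0.12 and *tyrp1b*, a pigment enzyme, at 0.41 ± 0.12.

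Lymphoid genes were higher at 5 dpf. *rag1*, the recombinase that T cells use in the thymus, had 21.3, 21.5, 12.7 and 10.15 CPM at 5 dpf, against 2.19, 0.941, 1.33 and 1.65 CPM at 3 dpf (3.43 ± 0.31 (SE), edgeR adjusted p = 1.26e-05), without overlap. In its list 8 of 15 tested genes were higher and 0 lower. Macrophage and microglia genes were higher in 16 of 33 and lower in 5 (median 0.43). Their leading gene *grn2*, one of several granulin genes, was higher by 4.88 ± 0.30. Of 16 neutrophil genes 5 were higher and 4 lower (31.2% and 25%, beside 27.0% and 25.3% of all genes tested). The members of that list with the largest values belong to other tissues too: *cpa5*, a carboxypeptidase also in the pancreas list, was higher by 6.17 ± 0.40, and *cebpa*, also a liver factor, by 0.97 ± 0.11. The neutrophil marker *mpx*, chosen after its values were seen, went the other way without overlap. It lay between 16.2 and 20.7 CPM at 5 dpf, against 24.4 to 32.5 CPM at 3 dpf. In the interferon list 4 of 24 were higher and 3 lower. *stat1a*, a transducer of interferon signals, had 119.7, 126, 103 and 116 CPM at 5 dpf, against 54.4, 58.9, 48.7 and 51.0 CPM at 3 dpf (1.13 ± 0.08 (SE), edgeR adjusted p = 3.48e-06), and *ifih1*, a sensor of viral RNA, was higher by 1.37 ± 0.22. Acute inflammation genes were higher in 7 of 34 and lower in 10, with *cxcl8a*, a neutrophil chemokine, higher (2.15 ± 0.30) and *caspb*, an inflammatory caspase, lower (-0.53 ± 0.12). Of 27 complement genes 7 were higher and 9 lower (25.9% and 33.3%, beside 27.0% and 25.3% of all genes tested). *c4* rose by 2.15 ± 0.22 and *c3a.1* had 381, 351, 297 and 340.0 CPM at 5 dpf, against 462, 899, 512 and 409 CPM at 3 dpf, a fall of 0.73 on the log2 scale (edgeR adjusted p = 0.0153).

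In the nervous system, just over 50% of synaptic vesicle genes were higher and fewer than 50% of newborn neuron genes lower. Of 66 synaptic vesicle genes 35 were higher and 9 lower (median 0.31), and with library totals 26 were higher and 13 lower. *syt5a*, a synaptotagmin of synaptic vesicles, was higher by 1.92 ± 0.23. Of 104 neurotransmitter receptor genes 35 were higher and 11 lower (0.21), with the NMDA receptor subunit *grin1a* at 0.47 ± 0.09 and *gabrr1*, a GABA receptor subunit of the retina, at 2.62 ± 0.36. Of 69 ion channel genes 23 were higher and 11 lower (33.7% of receptor and 33.3% of channel genes were higher, beside 27.0% of all genes tested), led by the potassium channel *kcnh4b* (2.41 ± 0.16). The proneural and newborn neuron list was lower in 21 of 47 and higher in 5 (median -0.24). *onecut2*, a factor of young neurons, had 3.54, 4.52, 5.30 and 4.87 CPM at 5 dpf, against 12.6, 10.6, 11.3 and 10.0 CPM at 3 dpf (-1.27 ± 0.14 (SE), edgeR adjusted p = 4.50e-05). *tubb5*, a tubulin of growing axons, had 539, 456, 676 and 676 CPM at 5 dpf, against 965, 901, 1048 and 1117 CPM at 3 dpf and was lower without overlap (-0.77 ± 0.13). Genes of the axon and its cytoskeleton were higher in 8 of 41 and lower in 12, the tubulin *tubb4b* lower (-0.54 ± 0.06) and the internexin gene *inaa*, an intermediate filament of neurons, higher (1.77 ± 0.18).

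Glia moved in both directions. Of 28 myelin and oligodendrocyte genes 15 were higher and 6 lower (median 0.41). *mbpa*, myelin basic protein, lay between 104 and 114 CPM at 5 dpf, against 26.2 to 28.3 CPM at 3 dpf and *gfap*, the filament of radial glia, between 127 and 277 CPM at 5 dpf, against 379.5 to 445 CPM at 3 dpf, both chosen after their values were seen. These are changes of 1.99 ± 0.06 and -0.89 ± 0.20 on the log2 scale (larger edgeR adjusted p = 0.00318). *slc1a2b*, the glial glutamate transporter, had 880.3, 739, 902 and 931 CPM at 5 dpf, against 487, 446, 478 and 520.3 CPM at 3 dpf (0.85 ± 0.09 (SE), edgeR adjusted p = 2.66e-05). Neural progenitor genes as a list were higher in 9 of 43 and lower in 16. Among them *rx2*, a retinal progenitor factor, was lower with a log2 fold change of -1.52 ± 0.18. Of 35 dopamine and monoamine genes 9 were higher and 9 lower (25.7% each, near the 27.0% and 25.3% of all genes tested). *ddc*, the decarboxylase that makes dopamine and serotonin, was higher (2.01 ± 0.20), and which tissue of the whole larva gave its counts was not tested. The dopamine neuron marker *th* lay between 1.35 and 3.44 CPM at 5 dpf and between 1.24 and 2.74 CPM at 3 dpf, which overlap. *gata3*, a factor of serotonin neurons that the skin and ear also use, was higher by 1.15 ± 0.08.

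Neuropeptide genes were higher in 12 of 31 and lower in 7. *cart3*, one of the cocaine- and amphetamine-regulated peptides, had 4.39, 2.57, 3.17 and 4.17 CPM at 5 dpf, against 16.6, 21.6, 20.1 and 18.5 CPM at 3 dpf (-2.43 ± 0.17 (SE), edgeR adjusted p = 2.31e-06). *adcyap1b*, the PACAP peptide, had 104, 85.2, 105 and 110.0 CPM at 5 dpf, against 132, 121, 129 and 148 CPM at 3 dpf and was lower too (-0.38 ± 0.09). In WT larvae these genes changed by 0.53 and 0.46, and in *elavl3:Gal4* larvae by 1.34 and 1.08. The difference between the age changes in fynY531F and WT larvae was -2.97 ± 0.26 for *cart3* (edgeR adjusted p = 2.93e-06) and -0.85 ± 0.12 for *adcyap1b* (edgeR adjusted p = 1.49e-04). Against *elavl3:Gal4* the differences were -3.75 ± 0.65 (edgeR adjusted p = 0.00413) and -1.46 ± 0.20 (edgeR adjusted p = 0.00112). Of 35 neuropeptide genes in the comparison with WT, 8 had a lower and 2 a higher age change in fynY531F larvae, where 5.47% and 6.23% of all 20340 genes had one. Among 8 pituitary genes 1 was higher and 3 lower, with the pituitary and motor neuron factor *LHX3* at -1.45 ± 0.17.

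Genes of the eye moved unevenly. Of 58 photoreceptor genes 23 were higher and 13 lower (median 0.27). *opn1sw1*, the ultraviolet cone opsin, had 813, 415, 536 and 643 CPM at 5 dpf, against 363, 209, 239 and 301 CPM at 3 dpf (1.12 ± 0.22 (SE), edgeR adjusted p = 0.00140), with no overlap. *pde6ga*, a phosphodiesterase subunit of the light response, was higher by 2.41 ± 0.27. The list of pigment epithelium and Müller glia was higher in 7 of 14 and lower in 2, with *rlbp1b*, which binds the visual chromophore, at 1.73 ± 0.28. Of 55 lens crystallin genes 9 were higher and 0 lower (median 0.00). *crybb1l1* had 1834, 2748, 1387 and 1116 CPM at 5 dpf, against 1324, 1796, 1307 and 1165 CPM at 3 dpf, which overlap, whereas *crygm2c* was higher by 3.41 ± 0.67 with replicate 2 the highest. The crystallins took 1.56 ± 0.528% of counts at 5 dpf and 1.51 ± 0.192% at 3 dpf (SD, n = 4 each).

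Mitosis and *hox* genes were mostly lower, while fewer than 50% of DNA replication and of other patterning genes were. Of 67 mitosis genes 54 were lower and 0 higher (median -0.60), and the list took 0.189 ± 0.0182% of counts at 5 dpf and 0.312 ± 0.0175% at 3 dpf (SD, n = 4 each). *cdc20*, which triggers anaphase, had 23.3, 21.2, 26.7 and 27.6 CPM at 5 dpf, against 48.6, 42.7, 52.4 and 47.5 CPM at 3 dpf (-0.95 ± 0.10 (SE), edgeR adjusted p = 2.74e-05). *lmnb2*, a nuclear lamin, was lower with a log2 fold change of -0.58 ± 0.08. Of DNA replication genes 20 of 56 were lower and 2 higher (median -0.19). *rrm2*, which makes deoxynucleotides, lay between 48.3 and 66.7 CPM at 5 dpf, against 118 to 124 CPM at 3 dpf, which is a fall, and *pcna*, the replication clamp, was lower with a log2 fold change of -0.31 ± 0.07, a call lost when all 6 groups were fitted together (edgeR adjusted p = 0.128). Of 43 *hox* genes, which set position along the body axis, 36 were lower and 0 higher (median -0.81). *hoxb3a*, of the hindbrain, had 58.0, 55.8, 66.9 and 74.5 CPM at 5 dpf, against 87.0, 83.8, 99.3 and 88.3 CPM at 3 dpf (-0.48 ± 0.10 (SE), edgeR adjusted p = 0.00183), and *hoxc13b*, of the tail end, had 1.18, 0.858, 1.58 and 1.25 CPM at 5 dpf, against 4.31, 5.25, 4.25 and 4.68 CPM at 3 dpf (-1.91 ± 0.21 (SE), edgeR adjusted p = 4.28e-05). Neither gene overlapped between ages. Segmentation and early patterning genes were lower in 11 of 28 and higher in 2, led by *lin28a*, an RNA-binding protein of immature cells, which had 3.29, 3.60, 3.79 and 3.199 CPM at 5 dpf, against 14.5, 16.5, 14.8 and 15.5 CPM at 3 dpf (-2.13 ± 0.11 (SE), edgeR adjusted p = 4.94e-07). Limb and fin bud genes were lower in 12 of 26 and higher in 5, with *tbx5a*, which starts the pectoral fin, at -1.23 ± 0.16.

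Among genes that make and break down RNA and protein, more than 50% of the ribosomal protein list were higher and more than 50% of the proteasome, spliceosome and mitochondrial ribosome lists lower, while the translation factor and ribosome biogenesis lists went both ways. Ribosomal protein genes were higher in 48 of 83 and lower in 3 (median 0.23), a share that became 27 higher and 5 lower when scaled by library totals. *rps2* had 4440.3, 4852, 4235 and 3808 CPM at 5 dpf, against 2984, 3388, 3273 and 3406 CPM at 3 dpf (0.42 ± 0.09 (SE), edgeR adjusted p = 0.00246), a call lost when all 6 groups were fitted together (edgeR adjusted p = 0.310). Proteasome genes were lower in 35 of 47 and higher in 5 (median -0.54). *psmd1*, a subunit of its regulatory cap, had 209.7, 212, 233 and 230.2 CPM at 5 dpf, against 256, 252, 273 and 251 CPM at 3 dpf (-0.21 ± 0.06, edgeR adjusted p = 0.0162, and 0.0530 without replicate 3 at 3 dpf), and *psma6l*, a copy of a core subunit, went the other way and lay between 5.49 and 8.24 CPM at 5 dpf, against 1.80 to 2.75 CPM at 3 dpf (edgeR adjusted p = 7.04e-05). Spliceosome genes were lower in 57 of 85 and higher in 4 (-0.39), with *hnrnpaba*, an RNA-binding protein, at -0.52 ± 0.07. *prpf8*, the core of the spliceosome, had 299, 291, 305 and 305 CPM at 5 dpf, against 369, 379, 380.3 and 360.1 CPM at 3 dpf (-0.30 ± 0.06 (SE), edgeR adjusted p = 0.00118), a fall without overlap whose call was lost when all 6 groups were fitted together (edgeR adjusted p = 0.0888). Genes of the mitochondrial ribosome were lower in 44 of 69 and higher in 1 (-0.36). Of the respiratory chain, 16 of 97 nuclear genes were higher and 31 lower (16.5% and 32%). Of 13 genes of the mitochondrial DNA 4 were higher and 0 lower (30.8% and 0%, beside 27.0% and 25.3% of all genes tested). The median deviation of these 13 from their own means over the 8 libraries (log2 CPM) was -0.15 in replicate 1 at 5 dpf. It was 0.35, 0.22 and 0.25 in replicates 2, 3 and 4, and between -0.18 and -0.05 at 3 dpf. *mt-nd6* had 469.8, 713, 605 and 671 CPM at 5 dpf, against 327, 350.0, 314 and 338 CPM at 3 dpf (0.89 ± 0.11 (SE), edgeR adjusted p = 9.97e-05), and *cox7a1*, a subunit isoform of muscle, rose by 3.61 ± 0.35. Ribosome biogenesis genes were higher in 10 of 54 and lower in 18, with the helicase *ddx21* at 1.31 ± 0.10, and translation factors were higher in 22 of 78 and lower in 29, with *eif4ebp3*, a brake on translation, at 2.08 ± 0.17.

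Metabolic and stress lists were mixed. Cholesterol synthesis genes were higher in 7 of 28 and lower in 10 (median -0.24). *idi1*, an isomerase of that pathway, had 45.7, 39.2, 38.2 and 42.3 CPM at 5 dpf, against 96.9, 97.2, 103 and 108 CPM at 3 dpf (-1.28 ± 0.07 (SE), edgeR adjusted p = 9.06e-07), and *srebf2*, its transcription factor, was higher by 0.18 ± 0.06 (edgeR adjusted p = 0.0197), a call lost with library totals, with all 6 groups in the fit and in 2 fits that left out a library. The joint list of fatty acid oxidation genes and targets of peroxisome proliferator-activated receptors was higher in 16 of 46 and lower in 17. Genes of glycolysis and glucose synthesis were higher in 13 of 41 and lower in 8. Antioxidant genes were higher in 21 of 44 and lower in 6. *gpx7*, a peroxidase of the endoplasmic reticulum, had 5.65, 7.61, 5.79 and 6.88 CPM at 5 dpf, against 21.3, 21.96, 25.1 and 21.7 CPM at 3 dpf and was lower (-1.78 ± 0.11 (SE), edgeR adjusted p = 1.42e-06), while *prdx2*, a cytosolic peroxiredoxin, was higher by 0.36 ± 0.07. Heat shock and chaperone genes were lower in 25 of 46 and higher in 8 (-0.28). *hsp70l*, the inducible heat shock protein, had 14.4, 17.0, 12.6 and 13.1 CPM at 5 dpf, against 3.71, 2.51, 6.05 and 5.51 CPM at 3 dpf and was higher (1.67 ± 0.22 (SE), edgeR adjusted p = 1.45e-04). Its age change exceeded that in WT by 2.36 ± 0.46 (edgeR adjusted p = 0.00281). *asns*, an amino acid response gene, was lower with a log2 fold change of -1.11 ± 0.18, in a list with 8 of 42 higher and 18 lower. Among p53 targets 10 of 28 were higher and 3 lower. *cdkn1a*, the cell cycle inhibitor p21, had 68.8, 35.0, 34.1 and 35.12 CPM at 5 dpf, against 9.83, 9.41, 8.05 and 8.88 CPM at 3 dpf (2.27 ± 0.23 (SE), edgeR adjusted p = 2.71e-05), an age change above that in WT by 1.37 ± 0.27 (edgeR adjusted p = 0.00271).

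Clock, activity and stress hormone genes depended in part on 1 library. Of 36 clock genes 15 were higher and 14 lower. *cry5*, a light-induced photolyase relative, had 4.47, 3.204, 1.72 and 2.43 CPM at 5 dpf, against 35.4, 36.9, 36.1 and 33.3 CPM at 3 dpf (-3.59 ± 0.20 (SE), edgeR adjusted p = 6.53e-07). The sources used here do not state the hour of sampling, so time and age cannot be told apart for these genes. Immediate early genes were higher in 15 of 26 and lower in 3 (median 0.98). *npas4a*, a factor that neurons make when active, had 50.9, 46.2, 60.3 and 45.3 CPM at 5 dpf, against 4.69, 3.53, 5.12 and 5.09 CPM at 3 dpf (3.45 ± 0.14 (SE), edgeR adjusted p = 1.61e-07), high in all 4 libraries. *jun* had 222, 175, 202 and 205 CPM at 5 dpf, against 257, 282, 306 and 314 CPM at 3 dpf and was lower (-0.52 ± 0.09), whereas in WT larvae it changed by 0.31 (difference -0.84 ± 0.10, edgeR adjusted p = 4.63e-05). Glucocorticoid response genes were higher in 13 of 23 and lower in 1 (median 0.51), among them *pck1*, a key enzyme of glucose synthesis, with 1317, 751, 684 and 689 CPM at 5 dpf, against 233, 308, 188 and 189 CPM at 3 dpf. Replicate 1 at 5 dpf stood above the other 3 in *pck1*, *cdkn1a* and the summed counts of all 3 lists. Without it the median of the immediate early list was 0.53 and that of the glucocorticoid list 0.21.

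**Figure D4:**
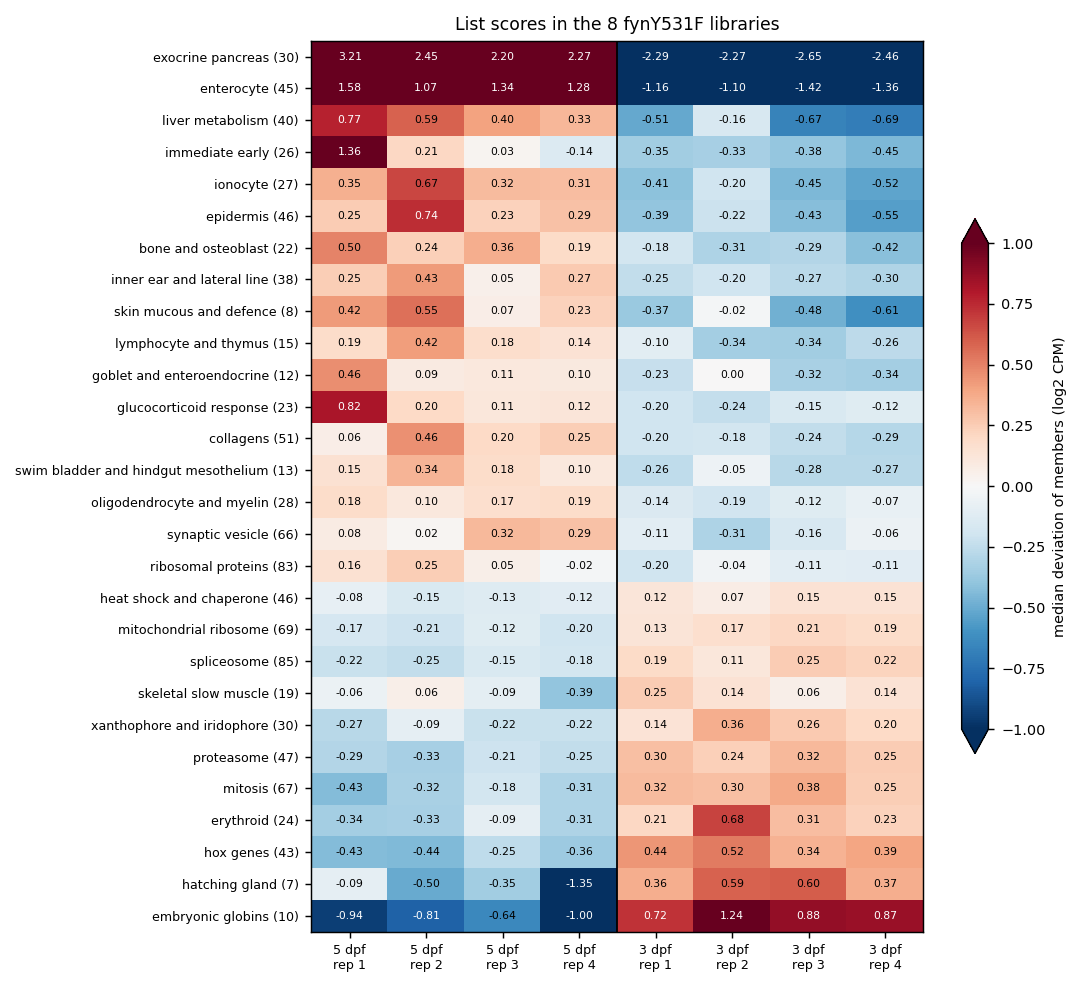
Score of each fynY531F library (columns, 5 dpf left of 3 dpf) in the 28 gene lists in which more than 50% of tested members were called in 1 direction, ordered by median log2 fold change. The score is the median over tested members of log2 CPM minus the member's mean over the 8 libraries, printed in each cell, and the immediate early score of 1.36 in replicate 1 at 5 dpf stands apart from 0.21, 0.03 and -0.14 in the other 3.

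The 5 dpf pools were not equal. Over 17530 genes whose log2 CPM averaged 1 or more, replicate 1 at 5 dpf lay more than 1 on the log2 scale above the mean of the other 3 in 246 genes, against 106, 47 and 44 genes for replicates 2, 3 and 4. At 3 dpf the 4 libraries did so in 59, 54, 26 and 19 genes. Exocrine pancreas genes took 0.911% of the counts of replicate 1 and 0.436 to 0.441% of those of the others, so this list, already high in all 4, was highest there. Epidermis genes took 5.79% in replicate 2, and 2.90, 3.87 and 3.90% in replicates 1, 3 and 4. Leaving out 1 of the 8 libraries gave between 9034 and 10110 calls and between 20 and 26 of the lists. What set these pools apart was not tested.

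Genes were also sorted by the protein domain that the tables name. Of 118 domain families with at least 20 tested genes, the zona pellucida domain had the largest share called higher (20 of 29, 69%, median 1.56), then trypsin (51 of 75, median 0.85) and NACHT (106 of 166, median 1.07). NACHT genes form large families of near-identical innate immune sensors in fish, so single members are uncertain in counts of this kind. UDP-glucuronosyltransferases (16 of 26) and cytochromes P450 (42 of 72), which modify toxins, bile pigment and steroids, were mostly higher too. Homeobox genes were lower in 89 of 163 and higher in 10, and tubulins were lower in 12 of 20 and higher in 0. By gene symbol, the *btr* genes (bloodthirsty-related, of the tripartite motif proteins) led with 9 of 11 higher, then keratins and sulfotransferases with 11 of 14 each, and the *prpf* splicing factors led the other side with 11 of 12 lower, then *timm* genes, which import proteins into mitochondria, with 11 of 13. Of 182 long intergenic RNAs 63 were higher and 15 lower.

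Some called genes were neighbours on the chromosomes (GRCz11). There were 14 runs of at least 8 neighbouring tested genes called in 1 direction. How many runs would arise by chance, with 27.0% of all genes called higher and 25.3% lower, was not tested. On chromosome 22, from 7044625 to 7508894, 8 genes with 4 elastase copies had a median of 6.83. On chromosome 20, from 25486021 to 25615727, *hook1* and 8 *cyp2* genes were higher by 0.37 to 5.47, and on chromosome 3, from 12593558 to 12826387, *abca3b* and 7 *cyp2k* genes had a median of 1.97. These runs hold related genes in tandem, whose reads can be shared. On the falling side, the *hoxd* genes and *evx2* on chromosome 9, from 1937049 to 2007106, had a median of -0.96, and 4 *hoxc* genes with 4 neighbours on chromosome 11, from 2156430 to 2429303, one of -0.97. The embryonic globin genes with *nprl3* and *kank2* at the ends, on chromosome 3, from 55045346 to 55214130, had a median of -2.21. A run on chromosome 12, from 16452575 to 16964840, held copies of *ctslb*, a cathepsin of the hatching gland, and had a median of -2.39. *ctslb* lay at most at 0.401 CPM at 5 dpf and at least at 2.57 CPM at 3 dpf.

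To see which of these changes went with age in other larvae, the age change in fynY531F larvae was compared with that in WT. WT larvae gave 11352 calls of 19589 genes (58.0%; 29.3% higher, 28.7% lower) and *elavl3:Gal4* larvae 5029 of 19534 (25.7%; 15.4% higher, 10.4% lower). Of 10117 genes called in fynY531F larvae and tested in WT, 7627 (75.4%) were called in the same direction in WT and 217 in the opposite one, and these 7627 were 68.2% of the WT calls. The difference between the age changes was called for 2380 of 20340 genes (11.7%), 1267 with a higher change in fynY531F larvae (6.23%) and 1113 with a lower (5.47%). With library totals these were 1588 and 824. The same difference from *elavl3:Gal4* larvae was called for 840 of 20358 genes (4.13%; 2.42% higher, 1.71% lower), and for 3262 of 20533 (15.9%; 9.40% higher, 6.48% lower) without replicate 3 of *elavl3:Gal4* at 5 dpf. Both comparisons use the same fynY531F libraries, so their values are not independent of each other.

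Genes of matrix, bone, skin and liver had higher age changes in fynY531F larvae more often than lower ones. The counts against *elavl3:Gal4* in this and the next paragraph, and its medians, leave out its replicate 3 at 5 dpf. Counts in both paragraphs stand beside the shares of all genes tested. Against WT, 6.23% of all genes had a higher and 5.47% a lower age change. Against *elavl3:Gal4* the shares were 9.40% and 6.48% without that library, and 2.42% and 1.71% with it. A count near these shares shows nothing particular to its list. Of 51 collagens 21 had a higher and 1 a lower age change than in WT, and against *elavl3:Gal4* 36 (with that library 21) had a higher and 0 (with that library 0) a lower one. The list's median was 0.47 in fynY531F larvae, -0.25 in *elavl3:Gal4* and 0.05 in WT. Plasma proteins of the liver had a higher change in 13 of 46 against WT and in 20 (with that library 9) of 46 against *elavl3:Gal4*. Cartilage genes had one in 12 and a lower one in 3 of 32 against WT and 18 (with that library 8) of 32 against *elavl3:Gal4*, with a median of 0.10 in fynY531F larvae, -0.64 in *elavl3:Gal4* and -0.48 in WT. For bone these counts were 6 and 8 (with that library 4) of 22, and for ionocytes 11 and 14 (with that library 6) of 27, with 2 lower against WT and 2 (with that library 2) against *elavl3:Gal4*. Epidermis genes had a higher change in 10 and a lower in 5 of 47 against WT, and in 21 (with that library 5) and 2 (with that library 0) of 47 against *elavl3:Gal4*. Genes of the amino acid and endoplasmic reticulum stress response had a higher change in 15 of 42 against WT and 15 (with that library 3) against *elavl3:Gal4*. DNA replication genes had one in 8 of 56 against WT and 22 (with that library 4) against *elavl3:Gal4*.

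Genes of axon and cytoskeleton, cholesterol synthesis and *hox* genes had lower age changes in fynY531F larvae more often than higher ones. Of 41 genes of axon and cytoskeleton 0 had a higher and 13 a lower age change than in WT larvae, and 17 (with that library 5) had a lower one against *elavl3:Gal4*. The medians were -0.04 in fynY531F larvae, 0.39 in *elavl3:Gal4* and 0.33 in WT. Proneural genes had a lower change in 7 of 47 against WT and 15 (with that library 6) against *elavl3:Gal4*, with a higher one in 1 and 0 (with that library 0). Synaptic vesicle genes had a higher change in 4 and a lower in 7 of 67 against WT, with a median difference of 0.0095, and a higher one in 1 (with that library 0) and a lower in 17 (with that library 6) against *elavl3:Gal4*. Neurotransmitter receptor genes had a higher change in 5 and a lower in 5 of 113 against WT (median difference 0.07). For protocadherins these counts were 1 and 2 of 46 and for ion channels 0 and 3 of 71, beside 6.23% and 5.47% of all genes. Against *elavl3:Gal4* they were 1 (with that library 0) and 7 (with that library 0) of 112 for receptors. Protocadherins gave 1 (with that library 0) and 3 (with that library 1) of 47. Ion channels gave 0 (with that library 0) and 7 (with that library 0) of 71, beside 9.40% and 6.48% of all genes without that library. Cholesterol synthesis genes had a lower change in 11 of 28 against WT and 15 (with that library 8) against *elavl3:Gal4*. The median of this list was -0.24 in fynY531F larvae, 0.64 in *elavl3:Gal4* and 0.20 in WT. *hox* genes had a higher change in 1 and a lower in 17 of 46 against WT, and a higher in 4 (with that library 1) and a lower in 12 (with that library 4) of 47 against *elavl3:Gal4*. Ribosomal protein genes had a median of 0.23 in fynY531F and 0.47 in WT larvae, and 11 of 83 had a lower change in fynY531F larvae. Exocrine pancreas genes had medians of 6.72 and 5.85 in these groups, with a higher change in fynY531F larvae in 7 of 31 and a lower in 0. Against *elavl3:Gal4* a higher change was called in 3 (with that library 1) of 31 and a lower in 0 (with that library 0). A higher change is not a higher level. *prss59.2*, the most abundant of the list, averaged 957 CPM in fynY531F and 1425 CPM in WT larvae at 5 dpf, against 5.88 and 42.9 CPM at 3 dpf. Enterocyte genes had medians of 2.94 in fynY531F and 3.39 in WT larvae, with a higher change in fynY531F larvae in 4 and a lower in 10 of 45, and against *elavl3:Gal4* a higher in 5 (with that library 2) and a lower in 13 (with that library 8) of 46.

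Single genes stood far from the WT change. *slc10a2*, the bile acid transporter above, had an age change that exceeded that in WT by 3.47 ± 0.67 (edgeR adjusted p = 0.00272) and that in *elavl3:Gal4* by 3.64 ± 0.69 (edgeR adjusted p = 0.00838). *crp2*, one of several C-reactive protein genes, had 17.0, 12.13, 5.65 and 7.65 CPM at 5 dpf, against 0.907, 0.706, 0.922 and 0.482 CPM at 3 dpf, and its change exceeded that in WT by 2.93 ± 0.45 (edgeR adjusted p = 4.36e-04). *odam*, related to a protein of mineralizing tissue, had 5.57, 2.69, 5.85 and 1.46 CPM at 5 dpf, against 0.454, 0.784, 0.205 and 0.344 CPM at 3 dpf and exceeded WT by 3.11 ± 0.67 (edgeR adjusted p = 0.00528). Against *elavl3:Gal4* no difference was called for *crp2* (2.05, edgeR adjusted p = 0.141) or *odam* (1.65, edgeR adjusted p = 0.317). Of 22 alternative fits, 3 called it for *crp2* and 0 for *odam*. *cfhl4*, a factor H-like gene of complement control, had 96.8, 96.6, 86.1 and 57.5 CPM at 5 dpf, against 27.8, 21.2, 20.3 and 36.0 CPM at 3 dpf. It was higher at 5 dpf by 1.69 ± 0.21 in fynY531F larvae and changed by -3.62 in WT and -2.82 in *elavl3:Gal4* larvae. Counts of such copies can be shared between them.

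**Figure D5:**
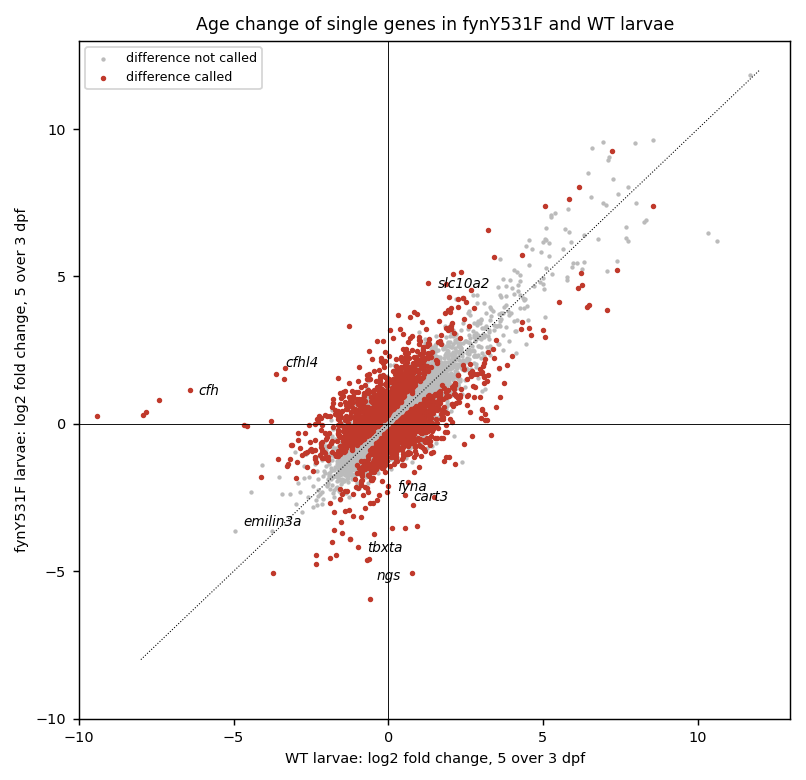
Log2 fold change, 5 over 3 dpf, in fynY531F larvae (vertical axis) and in WT larvae (horizontal axis) of each gene tested in both. Those whose age changes were called as different are in red, and a dotted line marks where both are equal. Most genes lie near the line, *ngs*, *tbxta*, *cart3* and *fyna* lie below it and *slc10a2*, *cfh* and *cfhl4* above it.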

How the data were processed

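Polyadenylated RNA from pools of whole larvae was sequenced, and the authors deposited whole-number counts per gene. The submitters' processing notes name HISAT2 2.0.5, StringTie 1.3.3b, featureCounts 1.5.0-p3 and the build GRCz11. Raw counts of 24 libraries (6 groups of 4) were read from 3 deposited tables. Their 48 further per-sample columns (normalized and FPKM values) and the authors' own fold changes and p-values were not used. The sources used here do not state whether counting used strand, so overlapping and antisense genes are uncertain.

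Counts were tested with edgeR 4.0.16 (R 4.3.3) by the quasi-likelihood test with TMM scaling, filterByExpr and Benjamini-Hochberg adjustment, called at an adjusted p under 0.05. Age changes were tested in the 8 fynY531F libraries, and their difference from WT or *elavl3:Gal4* as an interaction. CPM values use TMM-scaled library sizes. A list counts as moved where more than 50% of its tested members were called in 1 direction. Replicates are separate pools, and p-values measure the spread between them. The 8 libraries held 11890763 to 18752812 counts, and intervals for single shares are not given.

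The genes named were drawn from those with the 10 largest changes in each direction among called genes that did not overlap and averaged 1 or more in log2 CPM. The most abundant and the most changed gene of each list, leading genes of families, and those with the largest differences between genotypes were also drawn on. Not every gene of this rule is named, so those in the text are not always the most extreme. Genes outside this rule are marked as chosen after their values were seen. A gene that this rule names is not reported here. The members and lists were chosen with earlier results of these data known. DESeq2 1.42.0, library totals, other filters, a replicate block, 1 fit of all 6 groups and leaving out each library were tried. Steps were tested on simulated data in which far fewer genes changed than here, evenly in both directions. That setting cannot check how the scaling behaves when so many genes change.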

Additional observations from a re-analysis of the deposited data

Results flagged for a closer look

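Among 424 groups of 4 libraries looked at, 30 (7.08%) held a library far from the other 3, and chance gives about 1 in 20. Replicate 1 at 5 dpf was high for *ela3l* (692 CPM), *amy2a* (163 CPM), *ctrl* (595 CPM), *sycn.2* (116 CPM), *slc10a2* (15.4 CPM), *pck1* (1317 CPM), *grn2* (7.34 CPM) and *cdkn1a* (68.8 CPM). It was also high in the percent of counts of exocrine pancreas (0.911%), liver metabolism (0.598%), neutrophil (0.147%) and acute inflammation genes (0.206%). The same held for immediate early (0.252%), circadian clock (0.353%) and glucocorticoid response genes (0.402%), while notochord genes were low (0.0998%). The neutrophil list holds *cpa5*, which is also in the pancreas list. The median deviation of tested neutrophil genes from their own means over the 8 libraries (log2 CPM) was 0.02 in replicate 1. It was -0.01, -0.03 and -0.13 in replicates 2, 3 and 4, and between -0.07 and 0.12 at 3 dpf. The typical neutrophil gene was thus not set apart in that library. Replicate 2 at 5 dpf was high for *col14a1b* (279 CPM), *pvalb8* (453 CPM), *sparc* (1751 CPM), *btr12* (35.4 CPM) and *crygm2c* (7.78 CPM) and low in hypothalamic neuropeptides (0.0216%). Replicate 4 at 5 dpf was low for *tagln* (30.3 CPM). At 3 dpf, replicate 4 was high for *ela2* (0.619 CPM), replicate 2 for *chia.2* (3.06 CPM) and glycolysis genes (1.17%), and replicate 3 for *ahsg2* (0.410 CPM) and *gpx7* (25.1 CPM). Replicate 3 was low in fast muscle genes (3.44%) and replicate 2 in pituitary genes (0.0127%).

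The age change differed between genotypes by edgeR's interaction test, with all libraries kept, for the following genes. Values are the log2 change in fynY531F minus that in the other group. Against WT alone the differences were -3.95 for *ngs*, -3.96 for *vimr1*, -3.28 for *vimr2*, -3.21 for *tbxta*, 3.11 for *odam* and 2.93 for *crp2*. Against *elavl3:Gal4* alone they were 4.57 for *krt5* and 4.79 for *he1.2*. Against WT and then against *elavl3:Gal4*, they were -2.97 and -3.75 for *cart3*, -0.85 and -1.46 for *adcyap1b*, -0.84 and -0.90 for *jun*, 7.56 and 6.71 for *cfh*, 5.30 and 4.54 for *cfhl4*, 3.47 and 3.64 for *slc10a2*. In the same order they were 2.33 and 4.24 for an entry of *bcam*, 2.36 and 1.91 for *hsp70l*, 1.37 and 2.06 for *cdkn1a*, 1.4 and 1.72 for *col14a1b*, -2.10 and -2.38 for *fyna*, -4.10 and -4.65 for *hnrnpdl*, -4.35 and -5.77 for *pabpc4*. Another entry with the symbol *bcam* had 0.11 and 0.54, and neither was called (edgeR adjusted p = 0.613 and 0.431). Both comparisons share the fynY531F libraries. Without *elavl3:Gal4* replicate 3 at 5 dpf, *ngs*, *vimr1* and *vimr2* were called against *elavl3:Gal4* too (edgeR adjusted p = 0.0321, 0.0458 and 0.0420). Fitted differences of *paqr3a* (-5.35 and -4.95), *msh4* (-5.83 and -6.12) and *ggact.3* (-9.19 and -7.86) depend on the prior count and are no bound, since these genes held 3, 3 and 0 counts over the fynY531F libraries at 5 dpf.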

How the results depend on the processing

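The count of genes called with age stayed between 9034 and 10110 when any 1 library was left out, and was 10143 with DESeq2, 10595 with no filter, 7679 with all 6 groups in 1 fit and 2676 with a log2 fold change over 1 required. The count of lists with more than 50% of members in 1 direction, 28 here, was 20 to 26 without 1 library, 29 with DESeq2, 25 with library totals, 21 with no filter and 14 with all 6 groups in 1 fit. Leaving out 1 library lost the call, in some fits, for goblet, thymus, inner ear, synaptic vesicle and myelin lists. The same held for immediate early, ribosomal protein, glucocorticoid, slow muscle and heat shock lists. Some of these fits gained a call for pigment epithelium, olfactory, pituitary and mitochondrial DNA lists. With library totals the call was lost for goblet, thymus, synaptic vesicle, myelin, ribosomal protein and glucocorticoid lists and gained for fast muscle, proneural and endoplasmic reticulum stress lists, and the median changed sign near 0 for liver plasma protein, cartilage, interferon, acute inflammation, protocadherin, dopamine, glycolysis and hypoxia lists. The difference from WT was called for 1819 to 2526 genes without 1 library and for 873 with all 6 groups in 1 fit. The difference from *elavl3:Gal4* was called for 1798 genes with DESeq2, 1826 with all 6 groups in 1 fit and 445 to 3262 without 1 library, where 3262 is the value without *elavl3:Gal4* replicate 3 at 5 dpf and 445 that without fynY531F replicate 4 at 3 dpf. Leaving out fynY531F replicate 1 or 3 at 3 dpf, fynY531F replicate 2 at 5 dpf, or *elavl3:Gal4* replicate 1, 2 or 4 at 3 dpf gave 547, 487, 529, 506, 476 and 516. *actc1b*, not called, ran between -0.1657 and 0.0561 when 1 library was left out, the positive value without fynY531F replicate 4 at 5 dpf. Of the values of named genes under the alternatives, 3086 kept direction and side of the threshold, 29 lost the call and 24 gained it, and of list medians 1022 moved by less than the spread and 88 by more. The causes were not tested.

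Samples of the 2 ages share replicate numbers, and deviations of same-numbered libraries correlated by 0.03, 0.22, 0.08 and 0.15 over 17926 genes. Replicates 2 and 4 at 5 dpf correlated best with their own numbers at 3 dpf. Replicate 1 did so with replicate 2 (0.098) and replicate 3 with replicate 4 (0.213). These values do not settle whether the numbers are pairs, and they were not read as such. With a replicate block 10552 genes were called with age (5444 higher, 5108 lower), 34 lists passed, and the differences from WT and *elavl3:Gal4* were called for 2497 and 706 genes. Depth limits genes with few counts, such as the adult globins, which were not detectable as changed at this depth.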
